A study of Mus musculus with 4 samples.

Results

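Among the single nuclei sequenced from mouse cortex and hippocampus, 294 of 36094 nuclei (0.815%) were vascular fibroblast and pericyte nuclei. The library labelled Sel1L flox/flox replicate 1 held 80 of them, Sel1L flox/flox replicate 2 held 34, Sel1L Syn-Cre replicate 1 held 131 and Sel1L Syn-Cre replicate 2 held 49. Members were selected on their own UMIs (unique molecular identifiers, each counted as 1 captured RNA molecule). A nucleus had to hold more than 600 genes and under 5% mitochondrial UMIs, and at least 2 of the genes Slc6a13, Slc6a20a, Bnc2, Vtn, Pdgfrb and Ebf1 with a UMI. Nuclei with a UMI of 3 or more of the endothelial genes Flt1, Cldn5, Pecam1, Adgrl4, Slco1a4 and Mecom were left out, as were nuclei with more than 1 UMI of the neuronal genes Snap25 and Syt1 together. The levels of these 14 genes are therefore descriptions of the choice and carry no test.

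Each library came from 1 mouse of 5 weeks on the C57BL/6J background. The libraries labelled Sel1L flox/flox carry loxP-flanked alleles of Sel1L, the adaptor of the HRD1 ubiquitin ligase complex in endoplasmic reticulum-associated degradation (ERAD). Those labelled Sel1L Syn-Cre carry the same alleles with Cre recombinase driven by the Synapsin I promoter, which is active in neurons, so vascular fibroblasts and pericytes of these mice are not the cells in which Cre is driven. Nuclei were stained with propidium iodide, sorted and captured by droplet, with 2 libraries to a label. The 4 libraries held 122870443, 76617523, 75227337 and 74082610 UMIs, of which 207419, 82397, 370657 and 133368 belonged to member nuclei in the order above, which is kept wherever 4 values follow each other.

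Vessels of the brain carry mural cells on the outer face of the endothelium. Pericytes lie within the basement membrane of capillaries, receive endothelial PDGF-B through the receptor PDGFRB, and help to form the blood-brain barrier and to set capillary tone. Fibroblasts lie in the meninges and around larger vessels, outside the muscle layer, and lay down collagens, laminins and secreted factors such as retinoic acid and bone morphogenetic proteins. Both are mesenchymal, and both are few in preparations of nuclei from whole cortex.

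Before the labels were compared, each library was checked against its label. Sel1l counts did not mark the deletion. In the other nuclei the level was 97.1, 90.1, 157 and 130 CPM (counts of the gene per 1000000 UMIs), higher in both libraries labelled Syn-Cre. Counts from the 3′ end need not show the loss of exons elsewhere in a transcript, so this level does not check the deletion. In member nuclei Sel1l gave 22, 9, 41 and 13 UMIs, or 106, 109, 111 and 97.5 CPM, values that overlapped between the labels. The Cre transgene gave 490, 0, 262 and 259 UMIs in the other nuclei, so it was present in the library labelled Sel1L flox/flox replicate 1. Member nuclei held 0, 0, 0 and 1 Cre UMIs. Because the labels could not be checked from these counts, each library is called by its label and every direction below is a direction between labels. Slc7a11 in neuron nuclei, given below, was higher in both libraries labelled Syn-Cre. It is given there for the smallest p in a comparison that used the labels, so it does not check them. Xist, the RNA that coats the inactive X chromosome, gave 0, 167, 0 and 335 UMIs in member nuclei, and the Y-linked gene Ddx3y gave 25, 0, 49 and 0. Replicates 1 were thus male and replicates 2 female under both labels. Of 35976 barcodes in the nuclei kept, 117 occurred in more than 1 library, and 1 of these was a member.

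One library stood apart in doublet calls. Scrublet, which scores each nucleus against simulated mixtures of 2 nuclei, marked 5, 18, 6 and 0 member nuclei, so that 52.9% of the members of Sel1L flox/flox replicate 2 were marked against 6.78% of all its nuclei. These included 12 of its 15 pericyte-like nuclei. Over the series 9.86% of members and 7.68% of all nuclei were marked. Member nuclei were shallow, with a median of 2277.5 UMIs and 1397.5 genes against 7917 UMIs and 3254 genes over all nuclei kept. The medians by library were 2269, 1980.5, 2412 and 2124 UMIs, and these did not separate the labels.

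The 6 genes used to choose members were not held by the same nuclei. Slc6a20a, a proline and imino acid transporter, had a UMI in 233 members, and Pdgfrb had one in 178. Ebf1, a transcription factor of mesenchymal and B cell lineages, had one in 173 members, and Vtn, which encodes vitronectin, in 161. Slc6a13, a GABA and taurine transporter, was found in 141 members, and the zinc finger factor Bnc2 in 69. Exactly 2 of the 6 genes were held by 90 members, while 68 held 3, 111 held 4, 23 held 5 and 2 held all 6. Just outside the rule, 598 nuclei with a single one of these genes passed the other conditions, with a median of 3132 UMIs. On the endothelial side 10 members held UMIs of 2 of the 6 endothelial genes, and 1 nucleus was left out with exactly 3. On the neuronal side 122 members held 1 UMI of Snap25 or Syt1, and 79 nuclei were left out with exactly 2.

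Levels of the 6 genes in summed member nuclei were set beside those in all other nuclei. Slc6a13 stood at 660 CPM in summed member nuclei and 0.926 CPM in all other nuclei, a ratio of 713, and Slc6a20a stood at 1931 against 4.75 CPM. Vtn stood at 582 against 2.17 CPM, Pdgfrb at 489 against 3.50, Bnc2 at 435 against 2.78 and Ebf1 at 892 against 7.95 CPM. Slc6a13, Slc6a20a and Vtn were among the 15 genes with the largest ratio, as were genes that the rule did not name, such as Tbx18 and Foxd1, which are transcription factors of mural and meningeal mesenchyme, Aldh1a2, which makes retinoic acid, and Carmn, a long noncoding RNA of mural cells. Their ratios were 362, 263, 374 and 389. Lamc3 and Nid1, a laminin chain and nidogen of basement membranes, had ratios of 223 and 221. Slc6a13 lies on chromosome 6 at 121300227 to 121337733 and Vtn on chromosome 11 at 78499091 to 78502324 in GRCm38, both on the plus strand with no annotated gene opposite. Ebf1 on chromosome 11 and Slc6a20a on chromosome 9 overlap genes on the other strand (Gm12158 for Ebf1, and Ccr9 with Gm17120 and Gm17200 for Slc6a20a), and strand use in the counting is not given in the sources used here, so reads of such partners may be shared.

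**Figure D1:**
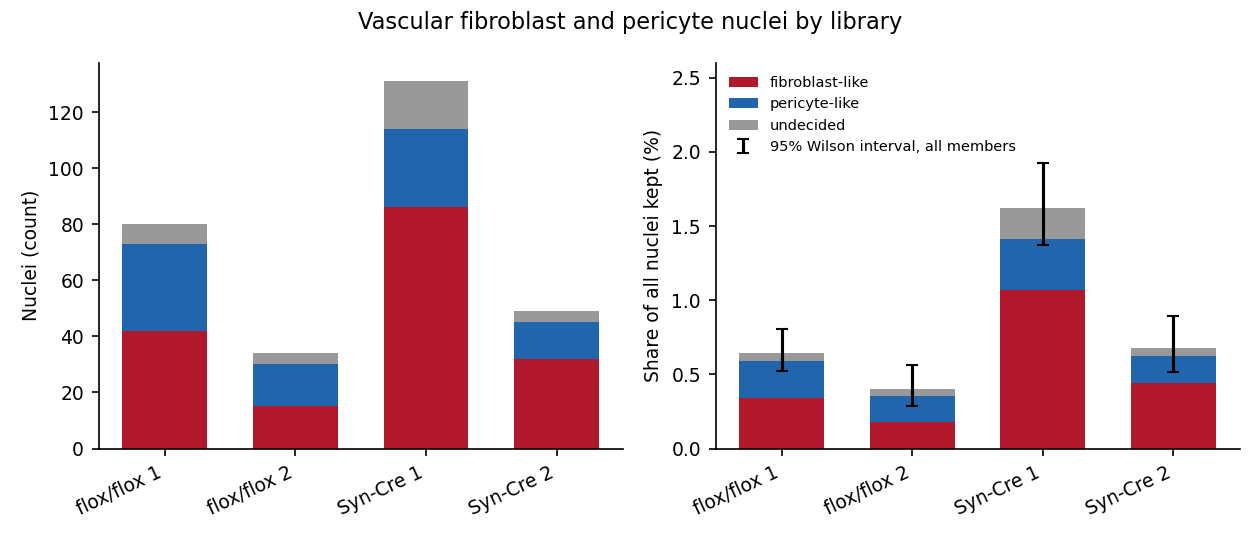
Number of member nuclei (left) and their share of all nuclei kept in percent (right) in each library, stacked by kind, with 95% Wilson intervals of the total share. The library labelled Syn-Cre replicate 1 held 131 members or 1.62%, and the other 3 libraries lay between 0.403% and 0.678%.

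Member nuclei were divided by 2 panels, 9 fibroblast genes (Slc6a13, Slc6a20a, Bnc2, Ranbp3l, Cped1, Bicc1, Col1a2, Dcn and Lama1) and 8 pericyte genes (Vtn, Atp13a5, Abcc9, Kcnj8, Rgs5, Notch3, Higd1b and P2ry14). A nucleus was called fibroblast-like or pericyte-like when at least 3 of its panel UMIs, and at least 2 in 3 of them, came from that panel. The split therefore fixed how panel genes differ between the kinds, and their levels are given as descriptions of it. There were 175 fibroblast-like nuclei (42, 15, 86 and 32), 87 pericyte-like nuclei (31, 15, 28 and 13) and 32 undecided nuclei (7, 4, 17 and 4). Fibroblast-like nuclei held a median of 29 fibroblast panel UMIs and 1 pericyte panel UMI, and 85 of them held no pericyte panel UMI. Pericyte-like nuclei held a median of 16 pericyte panel UMIs and 3 fibroblast panel UMIs, and 9 of them held no fibroblast panel UMI. On the panel share 19 members lay between 1 in 3 and 2 in 3. Fibroblast-like nuclei were deeper, with a median of 2729 UMIs against 1616 in pericyte-like nuclei.

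**Figure D2:**
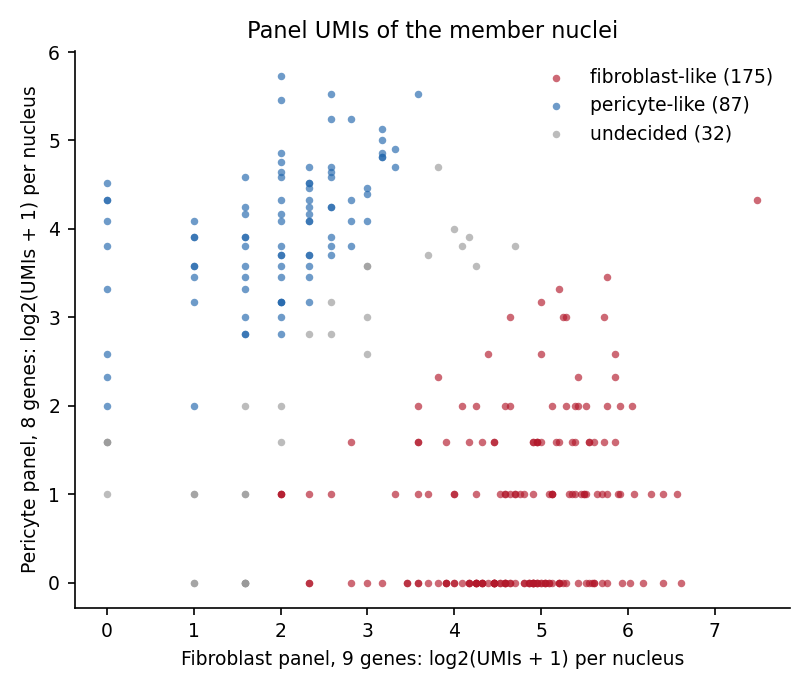
UMIs of the fibroblast panel (x axis) and the pericyte panel (y axis) in each of the 294 member nuclei, as log2(UMIs + 1), coloured by kind. There are 175 fibroblast-like, 87 pericyte-like and 32 undecided nuclei. The median was 1 pericyte panel UMI in fibroblast-like nuclei and 3 fibroblast panel UMIs in pericyte-like nuclei.

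Of the 15 genes with the largest ratio of fibroblast-like over pericyte-like nuclei, Ranbp3l, Lama1 and Bnc2 were panel genes. Ptgds, which was in neither panel and encodes the prostaglandin D2 synthase abundant in meninges, stood at 7213, 11120, 11940 and 8727 CPM in the 4 libraries. In pericyte-like nuclei it stood at 118, 192, 347 and 124 CPM, so the kinds did not overlap in any library. Bmp6, a bone morphogenetic protein, gave 1295, 1459, 1845 and 1444 CPM in fibroblast-like nuclei and no UMI in pericyte-like nuclei, at least 87.1-fold higher in the pooled nuclei. The panel gene Lama1, a laminin chain of the pial basement membrane, gave 724, 996, 869 and 700 CPM against 1 UMI in all pericyte-like nuclei together. The cystine-glutamate exchanger Slc7a11 stood at 2605, 2108, 2466 and 1939 CPM in fibroblast-like nuclei. Trpm3, a cation channel that hosts the microRNA Mir204, ranged from 6689 CPM in Sel1L flox/flox replicate 1 to 19360 CPM in replicate 2 of that label, and the libraries labelled Syn-Cre lay between them. Adam12, Eya1, Eya2, Sned1 and Cemip, a metalloprotease, 2 developmental regulators, a matrix protein and a hyaluronan-binding protein, were also among the 15.

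The classical interstitial collagens were present at modest levels in fibroblast-like nuclei. Col1a2, the second chain of type I collagen and a panel gene, stood at 309 CPM, Col1a1 at 89.5 CPM and Col3a1 at 111 CPM. Dcn, a panel gene which encodes the collagen-binding proteoglycan decorin, was at 325 CPM against 0 UMIs in pericyte-like nuclei. All 18 genes of interstitial matrix had a UMI in the members, and 11 of them passed the filter on low counts. Of markers outside the panel, Pdgfra stood at 374 CPM, the growth factor carrier Igfbp2 at 281 CPM, the drug and cation exporter Slc47a1 at 320 CPM and the organic anion transporter Slc22a6 at 130 CPM in fibroblast-like nuclei. Igfbp2, Slc47a1 and Slc22a6 gave no UMI in pericyte-like nuclei, and Pdgfra gave 18.6 CPM. Aldh1a2 followed the same pattern, at 201 CPM against 0 UMIs. The 12 fibroblast markers outside the panel summed to 2041 CPM in fibroblast-like and 285 CPM in pericyte-like nuclei. Mgp (32 UMIs) was the most abundant of them in pericyte-like nuclei.

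Basement membrane genes were divided between the kinds. The chains Col4a5 and Col4a6 of type IV collagen stood at 376 and 310 CPM in fibroblast-like nuclei and at 68.1 and 37.1 CPM in pericyte-like nuclei. Col4a1 and Col4a2, the common chains, stood at 94.95 and 69.4 CPM in fibroblast-like nuclei, 210 and 124 CPM in pericyte-like nuclei and 258 and 128 CPM in endothelial nuclei. Lama2, the laminin chain mutated in merosin-deficient muscular dystrophy, was at 897 and 978 CPM in the 2 kinds and 22.9 CPM in endothelial nuclei. Zic1 and Zic4, zinc finger factors of the meninges, were at similar levels in the 2 kinds (385 and 354 CPM in fibroblast-like, 439 and 303 CPM in pericyte-like nuclei), with 6.54 and 0 CPM in endothelial nuclei.

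Among the panel genes that defined pericyte-like nuclei, Atp13a5, a P5-type ATPase that marks brain pericytes, stood at 4288 CPM against 148 CPM in fibroblast-like nuclei. Kcnj8 and Abcc9 encode the pore and the regulatory subunit of the vascular ATP-sensitive potassium channel, and gave 266 and 730 CPM against 0 and 9.13 CPM. The panel gene Notch3, the receptor needed for mural cell maturation, gave 965 against 12.8 CPM. Slc38a11, an amino acid transporter that was not in either panel, gave 1159, 1305, 1137 and 1158 CPM in the 4 libraries and at most 7.09 CPM in fibroblast-like nuclei of any library. Gucy1b1, the β1 subunit of the nitric oxide receptor guanylate cyclase, stood at 662 against 9.13 CPM. Cspg4, which encodes the proteoglycan NG2 and was in neither panel, was at 266 against 3.65 CPM. It is 1 of 9 pericyte markers outside the panel, which summed to 9559 CPM in pericyte-like and 2631 CPM in fibroblast-like nuclei. Ptn (900 UMIs) was the most abundant of them in fibroblast-like nuclei. Ebf1 stood at 2716 CPM in pericyte-like, 325 CPM in fibroblast-like and 1734 CPM in endothelial nuclei. Slc6a20a was held by 68 of the 87 pericyte-like nuclei.

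**Figure D3:**
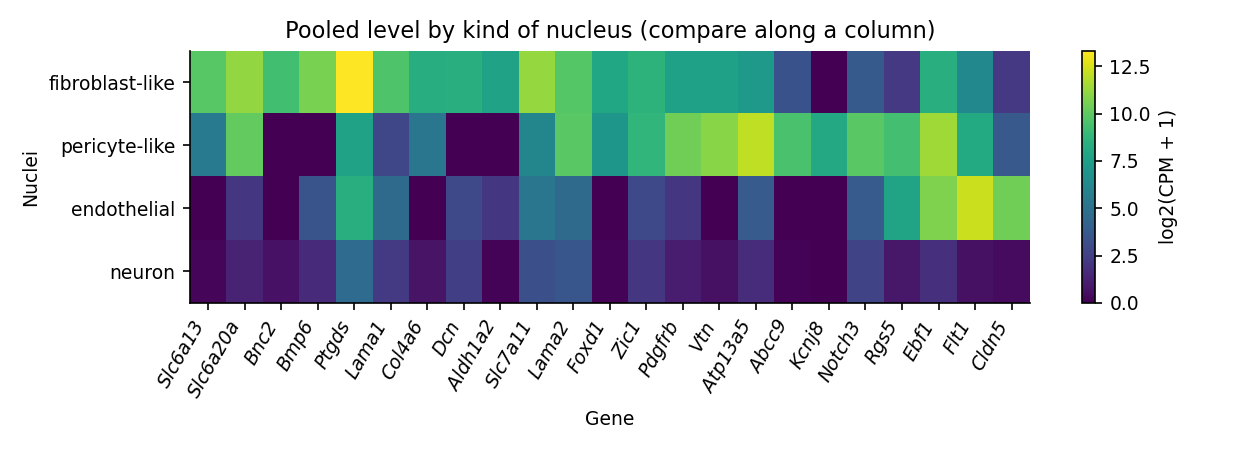
Pooled level of 23 genes, as log2(CPM + 1) by colour, in fibroblast-like, pericyte-like, endothelial and neuron nuclei. Ptgds and Bmp6 are bright in fibroblast-like nuclei, the panel genes Atp13a5, Abcc9 and Notch3 in pericyte-like nuclei, and Ebf1 in pericyte-like and endothelial nuclei.

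Of the smooth muscle markers, Cnn1 gave no UMI in any member, Acta2 gave 0, 0, 15 and 0 UMIs and Tagln gave 1, 0, 5 and 3. The summed level of the 7 smooth muscle markers was 121, 206, 294 and 135 CPM, with Mylk (68 UMIs) the most abundant, and 421 CPM in pericyte-like nuclei against 11.4 CPM in all other nuclei of the series. At least 4 of these markers were found in 2 members, both in Sel1L Syn-Cre replicate 1. Of the other cell types, the 6 endothelial markers, whose number the rule limited, summed to 238 CPM in members against 14540 CPM in the 145 endothelial nuclei, and Adgrl4 gave no UMI. Microglial and perivascular macrophage markers summed to 135 and 17.6 CPM, and Cd163 gave no UMI. Astrocyte markers summed to 2851 CPM, with Slc1a2 (865 UMIs) the most abundant, against 657 CPM in all other nuclei. In fibroblast-like nuclei they summed to 2816 CPM, with Slc1a3 at 1136, Slc1a2 at 745, Slc4a4 at 548, Gja1 at 270, Aldoc at 78.5 and the water channel gene Aqp4 at 38.3 CPM. In all 47 members, of which 32 were fibroblast-like, held at least 4 of the 6 markers of another cell type. Only astrocytes, oligodendrocytes, oligodendrocyte precursor cells (OPCs) and microglia were counted as another cell type or class, here and below. At least 4 astrocyte markers were held by 9, 3, 21 and 7 members.

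The share of member nuclei was larger under the Syn-Cre label, at 0.647%, 0.403%, 1.62% and 0.678% of the nuclei kept. The 95% Wilson intervals, which cover counting error only, were 0.520% to 0.805%, 0.289% to 0.563%, 1.37% to 1.92% and 0.513% to 0.895%, so replicate 2 of the Syn-Cre label overlapped replicate 1 of the flox/flox label. The means were 0.525% ± 0.173 and 1.15% ± 0.669 (SD, n = 2 each), a ratio of 2.19. The difference of 0.626 percentage points was 0.153 without Sel1L Syn-Cre replicate 1 and 1.1 without Sel1L Syn-Cre replicate 2. The exact two-sided permutation test gave p = 0.333, the smallest value that 2 libraries against 2 can give, so the design could not pass the threshold. With all nuclei marked as doublets left out, members or not, the shares were 0.675%, 0.203%, 1.66% and 0.72%. When at least 3 of the 6 genes were asked for, the labels overlapped, at 0.437%, 0.284%, 1.2% and 0.401%. They also overlapped without nuclei holding at least 4 markers of another class (0.869%, 0.531%, 1.8% and 0.712%) and without nuclei holding at least 3 choroid plexus markers (0.655%, 0.372%, 1.53% and 0.651%). After each nucleus was thinned to 2000 UMIs, with shallower nuclei left out (32, 18, 48 and 21 members), the shares were 0.421%, 0.223%, 1.17% and 0.473%.

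By kind, fibroblast-like nuclei were 0.34%, 0.178%, 1.07% and 0.443% of all nuclei kept, with no overlap between the labels (p = 0.333, exact permutation test). Pericyte-like nuclei were 0.251%, 0.178%, 0.347% and 0.18%, and endothelial nuclei 0.461%, 0.237%, 0.632% and 0.235%, and for both the labels overlapped (p = 0.667 and 1.0, exact permutation test). Fibroblast-like nuclei made up 52.5%, 44.1%, 65.6% and 65.3% of the members, or 48.3% ± 5.93 against 65.5% ± 0.242 (SD, n = 2 each). The difference of 17.2 percentage points had p = 0.333 in the exact permutation test. It shrank to 8.07 points without doublets, because the share in Sel1L flox/flox replicate 2 moved from 44.1% to 62.5%.

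Gene by gene, no difference between the labels passed in member nuclei. UMIs were summed over the members of each library and tested with edgeR's quasi-likelihood test, and 0 of 4300 genes (0%) had a Benjamini-Hochberg adjusted p below 0.05. At an unadjusted p below 0.05 there were 280 genes, and DESeq2 called 0 genes with 72 at an unadjusted p below 0.05. With 1 library left out in turn, in the order above, edgeR called 2, 3, 1 and 9 genes in members, and Htr2c was among them each time. Such a fit leaves 1 label with a single library, which is assumed to vary like those of the other label. That label is then also of a single sex, since replicate number coincided with sex. In fibroblast-like nuclei 0 of 2776 genes (0%) passed in edgeR, with 108 at an unadjusted p below 0.05, and DESeq2 called 0 with 20. Without Sel1L flox/flox replicate 1 edgeR called 94 genes in fibroblast-like nuclei, 82 of them higher under the Syn-Cre label, and without replicate 2 of that label 34 genes. In pericyte-like nuclei 0 of 596 genes (0%) passed in edgeR, with 71 at an unadjusted p below 0.05, and DESeq2 called 2 with 17. For all 4300 genes tested in members, both libraries labelled Syn-Cre lay above both labelled flox/flox for 737 genes (17.1%) and below them for 803 genes (18.7%), and the median log2 fold change was -0.005. The genes described next are those with the smallest unadjusted p among genes of at least 20 UMIs whose labels did not overlap. None of them passed with label as the only term, and their values are given as measured. With replicate number, which coincided with sex, as a further term, 27 genes passed in members, 17 of the 20 named here among them.

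Htr2c, the serotonin 2C receptor gene, gave 21, 0, 279 and 147 UMIs in member nuclei, or 101, 0, 753 and 1102 CPM. Ttr, which encodes transthyretin, gave 83, 8, 626 and 239 UMIs, or 400, 97.1, 1689 and 1792 CPM, a log2 fold change of 2.70 (SE 0.463, edgeR adjusted p = 0.13). For Ttr it was 4.16 without Sel1L flox/flox replicate 1 and 2.12 without replicate 2 of that label, and Ttr passed in both of these fits and without Sel1L Syn-Cre replicate 2 (edgeR adjusted p = 0.0259, 0.0341 and 8.94e-08), but not without Sel1L Syn-Cre replicate 1 (0.576). Enpp2, which encodes the lysophospholipase autotaxin, stood at 304, 291, 704 and 1320 CPM, with a log2 fold change of 1.74 (SE 0.332, edgeR adjusted p = 0.21). These genes are known from the epithelium of the choroid plexus. The 6 markers of that epithelium, Ttr, Folr1, Htr2c, Clic6, Kl and Enpp2, summed to 858, 486, 3273 and 4506 CPM in the members, with Ttr (956 UMIs) the most abundant and Folr1 at 0, 0, 9 and 6 UMIs. Of the 4 markers tested, 3 were higher in both libraries labelled Syn-Cre, against 17.1% of all genes tested, and the median log2 fold change was 2.22. They lay mainly in fibroblast-like nuclei, where they summed to 1148, 556, 4168 and 4827 CPM, while pericyte-like nuclei gave 336, 76.8, 405 and 0 CPM. At least 3 of the 6 markers were found in 20 members (1, 3, 13 and 3), 17 of them fibroblast-like. These nuclei were chosen by the markers themselves, so that lower marker values without them follow from the choice. Without these nuclei the log2 fold change was 1.09 for Ttr and 0.44 for Enpp2, and Htr2c no longer passed the filter on low counts. Gmnc, a regulator of multiciliated cells (1, 0, 29 and 20 UMIs), and Prlr, the prolactin receptor gene (2, 0, 32 and 14 UMIs), followed the same order of libraries and were also below that filter without these nuclei. Asking for at least 3 of the 6 member genes, a choice that used none of these markers, gave log2 fold changes of 1.05 for Ttr and 0.37 for Enpp2.

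Other genes higher under the Syn-Cre label were not among the markers that chose those nuclei. Tmem164, a gene of ether lipid metabolism, stood at 207, 194, 477 and 592 CPM, with a log2 fold change of 1.40 (SE 0.28, edgeR adjusted p = 0.229) and 1.44 without those nuclei. Sidt1, a transmembrane gene related to a worm RNA transporter, stood at 135, 48.5, 448 and 285 CPM, with log2 fold changes of 1.88 and 1.86. The value for Sidt1 was 2.94 without Sel1L flox/flox replicate 1 and 2.19 without Sel1L Syn-Cre replicate 2. It was 1.48 without Sel1L flox/flox replicate 2 and also without Sel1L Syn-Cre replicate 1. For the calcium pump gene Atp2b2 the log2 fold change was 1.78 and 0.56 without them.

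Among the named genes, 7 belong to the circadian clock, in which CLOCK or NPAS2 pairs with BMAL1 (the product of Arntl) to drive genes such as Per2, Per3, Dbp, Tef and Nr1d2. Npas2 gave 9, 2, 73 and 19 UMIs in members, or 43.4, 24.3, 197 and 142 CPM, with a log2 fold change of 2.22 (SE 0.426, edgeR adjusted p = 0.21). Arntl gave 33.8, 36.4, 162 and 105 CPM, with a log2 fold change of 1.98 (SE 0.447, edgeR adjusted p = 0.291). Dbp, a transcription factor of the PAR bZIP family, gave 31, 11, 9 and 2 UMIs, or 149, 133, 24.3 and 15 CPM, with a log2 fold change of -2.70 (SE 0.464, edgeR adjusted p = 0.13). Tef, of the same family, stood at 250.7, 267, 94.4 and 97.5 CPM and Per2 at 120, 158, 32.4 and 45.0 CPM. The absence of overlap between the labels in these 5 genes was a condition for naming them. The same condition, within fibroblast-like nuclei, applied to Nr1d2 and Per3. In fibroblast-like nuclei alone Nr1d2 stood at 316, 139, 74.5 and 32.3 CPM and Per3 at 316, 463, 170 and 172 CPM, with edgeR adjusted p = 0.997 for each. Leaving out any 1 library kept the log2 fold change of Npas2 between 1.91 and 2.82, of Arntl between 1.56 and 2.25 and of Dbp between -3.19 and -2.48. Without Sel1L Syn-Cre replicate 2 these 3 genes passed (edgeR adjusted p = 0.00325, 0.0228 and 0.0201), and in the fits without each of the other libraries they did not. In fibroblast-like nuclei the log2 fold change of Nr1d2 was -1.97, which ran from -2.81 without Sel1L Syn-Cre replicate 1 to -1.08 without Sel1L flox/flox replicate 1, and it passed without Sel1L flox/flox replicate 2 (edgeR adjusted p = 0.000511).

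Promoters of 3 of these genes are shown because each holds a short motif that clock factors are known to bind. The windows run from 250 bases before the transcription start to 50 after it, as listed by RefSeq on GRCm38.p6, and capitals mark the motif. Tef (chr15:81802423-81802722, plus strand) holds the E-box CACGTG, which 7.15% of 32851 listed promoters hold. Arntl (chr7:113207261-113207560, plus strand) holds TAGGTCA, the core of the element bound by ROR and REV-ERB receptors, which 2.61% hold. Per3 (chr4:151044616-151044915, minus strand) holds 2 copies of the D-box TTATGTAA, the site of the PAR bZIP factors, which 0.938% hold. Both strands were searched, and a match is a run of letters only. Of 15 clock genes with a listed promoter, the E-box was found for 5, the second motif for 2 and the D-box for 1, and no match was found for Npas2, Dbp or Nr1d2. Per2 was not among the genes with a match either.
Tef: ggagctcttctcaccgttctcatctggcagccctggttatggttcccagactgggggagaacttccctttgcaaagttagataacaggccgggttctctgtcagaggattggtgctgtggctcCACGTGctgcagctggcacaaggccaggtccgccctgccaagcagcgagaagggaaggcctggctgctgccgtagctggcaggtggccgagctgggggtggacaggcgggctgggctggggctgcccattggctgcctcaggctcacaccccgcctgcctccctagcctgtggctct
Arntl: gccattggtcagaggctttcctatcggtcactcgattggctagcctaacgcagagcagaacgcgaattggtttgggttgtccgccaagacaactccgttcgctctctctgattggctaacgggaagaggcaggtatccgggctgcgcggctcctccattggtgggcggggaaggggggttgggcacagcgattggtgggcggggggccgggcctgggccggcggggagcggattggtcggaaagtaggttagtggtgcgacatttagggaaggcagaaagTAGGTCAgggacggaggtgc
Per3: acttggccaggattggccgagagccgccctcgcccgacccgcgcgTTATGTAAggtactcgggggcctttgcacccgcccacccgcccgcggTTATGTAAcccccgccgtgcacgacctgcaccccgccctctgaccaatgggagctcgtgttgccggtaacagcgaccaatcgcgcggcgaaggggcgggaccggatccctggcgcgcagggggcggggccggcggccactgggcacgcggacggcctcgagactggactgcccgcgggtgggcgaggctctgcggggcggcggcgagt

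Several genes with lower values under the Syn-Cre label were genes of pericyte-like nuclei. Grm7, a metabotropic glutamate receptor gene, gave 271, 117, 174 and 57 UMIs in members, or 1307, 1420, 469 and 427 CPM, with a log2 fold change of -1.59 (SE 0.261, edgeR adjusted p = 0.13). With doublets left out the log2 fold change was -1.01 (edgeR adjusted p = 0.969). Grm7 stood at 2914 CPM in pericyte-like and 152 CPM in fibroblast-like nuclei. Tbx3os1, a long noncoding RNA opposite Tbx3, stood at 371, 425, 154 and 128 CPM, and Lin7a, a scaffold gene of cell junctions, at 280, 303, 124 and 105 CPM. Of the 7 pericyte markers outside the panel tested in members, 3 lay lower in both libraries labelled Syn-Cre, against 18.7% of all genes tested, with a median log2 fold change of -0.34. Of the 5 tested in pericyte-like nuclei none lay lower and 2 lay higher without overlap. All 5 log2 fold changes were positive, with a median of 0.23 against 0.0 over the 596 genes tested there. Of the 3 tested in fibroblast-like nuclei 1 lay lower without overlap and 0 log2 fold changes were positive. Their median was -0.28, against 0.01 over all genes tested in that kind. No share without overlap is given for the genes tested within either kind, and the 18.7% is of genes tested in members. Values summed over members mix the kinds, whose shares differed between libraries. Grm7 stood at 3544, 4338, 1851 and 2110 CPM within pericyte-like nuclei (log2 fold change -0.99, SE 0.235, edgeR adjusted p = 0.258), and Tbx3os1 at 1176, 1305, 694 and 620 CPM. With the replicate number as a block Grm7 passed in pericyte-like nuclei.

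**Figure D4:**
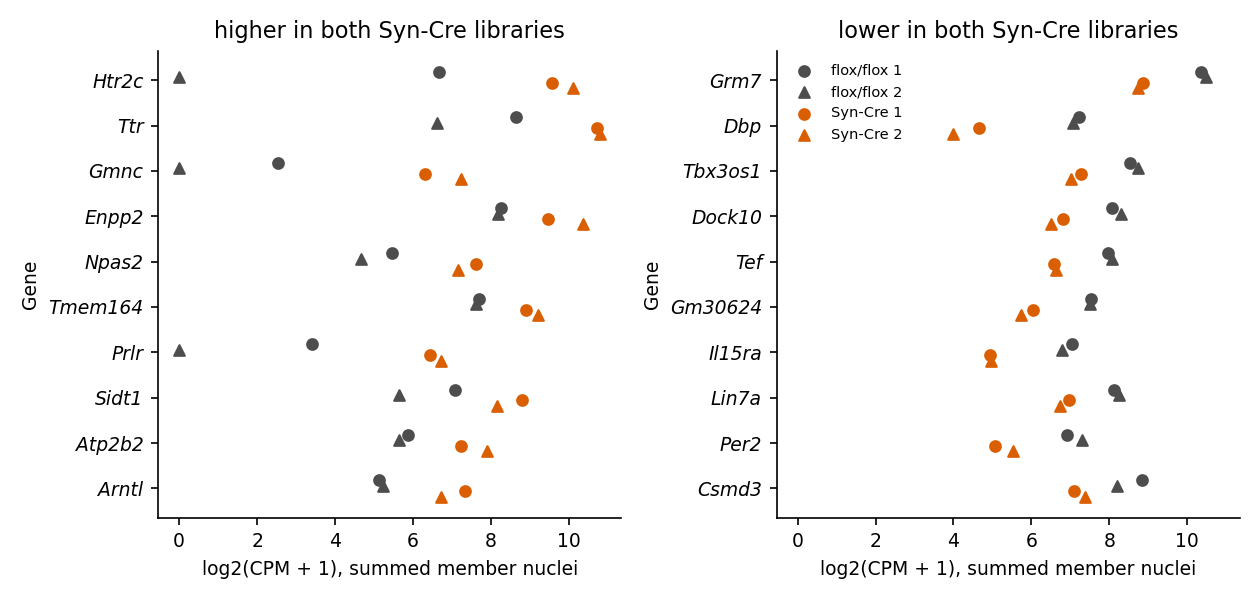
Level of the 10 genes higher (left) and the 10 lower (right) in both libraries labelled Syn-Cre with the smallest unadjusted p, as log2(CPM + 1) of summed member nuclei. Grey points are flox/flox and orange points Syn-Cre libraries, circles replicate 1 and triangles replicate 2. No gene passed the adjusted threshold, and Htr2c runs from 0 to 1102 CPM.

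In pericyte-like nuclei the smallest p belonged to Slc1a2, the glutamate transporter gene of astrocytes, with 9, 9, 80 and 45 UMIs, or 151, 345, 1542 and 1861 CPM (log2 fold change 2.93, SE 0.391, edgeR adjusted p = 0.0618). The 6 astrocyte markers summed to 286, 384, 2333 and 3144 CPM in these nuclei, with Slc1a2 the most abundant and Aqp4 at 1, 0, 2 and 1 UMIs. Without nuclei that held at least 4 of 6 markers of another cell type the log2 fold change of Slc1a2 was 1.19. That fall follows at least in part from the choice, since Slc1a2 is among the markers that chose those nuclei. Gabrb1, a GABA-A receptor subunit gene, Cpe, a prohormone processing enzyme gene, Apoe and Slc1a3 were also among the 10 higher genes. Without those nuclei the log2 fold change of Apoe fell from 1.93 to 0.86. For Frmd4a, also among the 10, it fell from 1.48 to 0.72. Neither gene is among the markers that chose those nuclei, and Gabrb1 and Cpe had no fitted value there. Galnt17, a glycosyltransferase gene, stood at 285, 154, 1060 and 827 CPM, where the log2 fold change was 2.00 and edgeR gave an adjusted p of 0.111. Without those nuclei it was 2.15, and Galnt17 was the 1 gene that passed (edgeR adjusted p = 0.00276). Over its alternatives the adjusted p of Galnt17 ran from 0.000146 to 0.857. Csmd3, a large transmembrane gene expressed in neurons, gave 68, 17, 3 and 0 UMIs (edgeR adjusted p = 0.0618). In the fit of all members, Csmd3 had no fitted value without nuclei that held at least 4 markers of another cell type. The 6 OPC markers summed to 1612, 115, 578 and 414 CPM in pericyte-like nuclei. What part RNA of other cells had in the Csmd3 values was not tested. Slc1a2 and Csmd3 were the 2 genes that DESeq2 called, with adjusted p = 0.000933 and 0.00849. Over the alternatives the adjusted p ran from 1.43e-10 to 0.682 for Slc1a2 and from 8.78e-11 to 0.857 for Csmd3. Itpr2, an inositol trisphosphate receptor gene, stood at 873, 806, 347 and 414 CPM. Wls, which is needed to secrete Wnt proteins, gave 28, 11, 10 and 3 UMIs.

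The gene lists were read against the background of 17.1% higher and 18.7% lower among all 4300 genes. Of 18 ERAD genes, all had a UMI and 10 were tested in members, 0 passed, 4 were higher without overlap and none lower, and the median log2 fold change was 0.24. Their summed level was 930, 983, 1033 and 945 CPM, in which the labels overlapped. Of 15 chaperones of the endoplasmic reticulum 7 were tested, 0 passed and the median was 0.14, with Hspa5, the chaperone BiP, at 9, 7, 33 and 13 UMIs. Of 14 genes of the unfolded protein and integrated stress responses 4 were tested and 0 passed, and Chac1 and Atf3 gave no UMI. Of 17 genes of one-carbon metabolism 3 were tested and 0 passed, and the mitochondrial enzyme gene Mthfd2 gave 0, 1, 5 and 3 UMIs.

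Glucocorticoid-responsive genes lay mostly on one side. Of 10 genes 7 were tested and 0 passed, 6 lay higher in both libraries labelled Syn-Cre and the median log2 fold change was 1.08. Fkbp5, a co-chaperone of the glucocorticoid receptor, gave 24, 23, 149 and 93 UMIs, with a log2 fold change of 1.55 (SE 0.421, edgeR adjusted p = 0.482). Errfi1, an inhibitor of the EGF receptor, gave 35, 11, 145 and 47 UMIs, with a log2 fold change of 1.27 (SE 0.294, edgeR adjusted p = 0.295). The list summed to 810, 1032, 1727 and 2069 CPM in members. Per1 was the exception in members, with a log2 fold change of -0.04. In fibroblast-like nuclei alone 6 genes of this list were tested, with 4 higher and 1 lower without overlap. Their median was 0.72, against 0.01 over all genes tested there. Of 20 transport genes 16 were tested, with 1 higher and 3 lower without overlap. The lower ones were Atp13a5, Abcc9 and Abca8a, which the membership rule did not use. The list also holds Slc6a13 and Slc6a20a, which the rule did use, so its counts describe the choice of members in part and carry no test. Of 20 basement membrane genes 12 were tested, with 2 higher (Col4a2 and Lama2) and 1 lower (Lamc1). Of 11 interstitial matrix genes tested 1 was higher (Col3a1) and 1 lower (Col12a1). Of 6 oligodendrocyte markers 3 were tested in members and 0 passed. All 3, Mbp and Mobp among them, were lower in both libraries labelled Syn-Cre, and the median log2 fold change was -1.25. The list summed to 622, 1444, 424 and 187 CPM. What part RNA of other cells had in these lists was not tested.

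**Figure D5:**
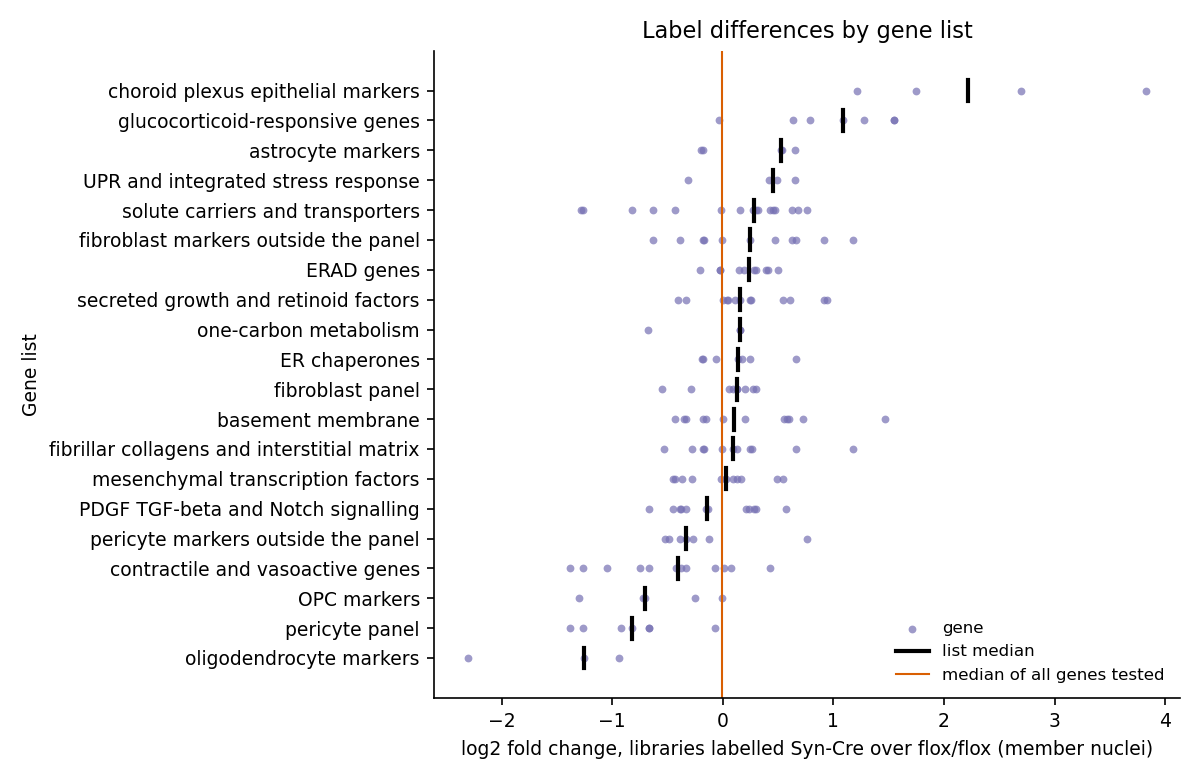
Log2 fold change of the libraries labelled Syn-Cre over those labelled flox/flox in member nuclei, 1 point for each gene tested and 1 black bar at the median of each list of at least 3 tested genes. The orange line marks the median of all 4300 genes, -0.005, and no gene passed the adjusted threshold.

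Finally the label difference in members was tested against that in other nuclei of the same libraries. Against the 145 endothelial nuclei (57, 20, 51 and 17), the interaction of label and kind passed for 0 of 4300 genes (0%) in edgeR, with 188 at an unadjusted p below 0.05, and DESeq2 called 0 with 23. Against 25458 neuron nuclei it passed for 0 of 4300 genes (0%) in edgeR, with 283 at an unadjusted p below 0.05, while DESeq2 called 7 with 162, and without Sel1L flox/flox replicate 1 edgeR called 56. The smallest p belonged to Slc7a11. In neurons it stood at 2.85, 2.06, 22.0 and 10.4 CPM, higher in both libraries labelled Syn-Cre, and in members at 1798, 1189, 1913 and 1410 CPM, where the labels overlapped. The difference between these log2 fold changes was -2.41 (SE 0.322, edgeR adjusted p = 0.15). With doublets left out Slc7a11 was the 1 gene that passed, and it was among the 7 genes that DESeq2 called. For Sel1l the difference between members and neurons was -0.59 (SE 0.327, edgeR adjusted p = 0.834), with neurons at 95.4, 89.2, 154 and 130 CPM.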

How the data were processed

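The authors deposited raw UMI counts per gene and nucleus for 4 libraries (10x 3' chemistry). Per the labels, Cell Ranger 6.1.0 and GRCm38 were used. Whether intronic reads and strand were used is not given in the sources used here. Members and gene lists were chosen with earlier results of these data known. UMIs were summed per library and kind of nucleus and tested with edgeR 4.0.16 (filterByExpr, minimum count 10, TMM, quasi-likelihood F test, label as the only term, Benjamini-Hochberg adjustment). Interactions used 8 summed profiles with library as a block. DESeq2 1.42.0 was the alternative. Shares were compared by exact two-sided permutation over libraries. Each label had 2 mice, so p-values measure the spread between these 4 libraries. CPM is counts per 1000000 UMIs of the summed nuclei. Ratios of kinds used a floor of 3 UMIs where a kind held fewer. Named genes were the 14 rule genes and Sel1l, genes of the 27 lists, for each fit the 10 genes in each direction with the smallest p, at least 20 UMIs and no overlap between labels, and the 15 genes of largest ratio per kind among genes in at least 20% of nuclei. Some of these genes are not reported here. Fits were tested on simulated data with known changes. Doublets were scored with Scrublet in scanpy 1.11.5 and kept. Positions are from GENCODE vM21. Alternatives covered filters, tools, doublets, membership and each library left out.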

Additional observations from a re-analysis of the deposited data

Results flagged for a closer look

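In 4 named genes the libraries labelled Syn-Cre lay on opposite sides of those labelled flox/flox in the 2 kinds, without overlap in either, and the difference between kinds was not tested. Named genes included those picked for no overlap within a kind. No share over all genes tested in both kinds is given, so the count of 4 has no background and is a description only. The log2 fold change was -1.08 in fibroblast-like and 1.42 in pericyte-like nuclei for Cacna2d1, a calcium channel subunit gene. It was 0.97 and -1.16 for Lrrc4c, a synaptic adhesion gene. For Slc1a3 it was -0.71 and 2.84, and for Wls 0.23 and -1.40. None passed the adjusted threshold in either kind with label as the only term. With the replicate number as a block Slc1a3 passed in pericyte-like nuclei (log2 fold change 2.82, edgeR adjusted p = 0.0325, against 0.284 without the block).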

How the results depend on the processing

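In member nuclei the count of genes called was 0 and became 2 with no filter beyond 1 count (where the median over all genes moved to 0.144), 2 after thinning to the smallest library, 1 when at least 3 member genes were asked for, and 1 to 9 with a library left out. It was 0 with DESeq2 and in each of the other alternatives without a block. In fibroblast-like nuclei it ran from 0 to 94 with a library left out, being 94 and 34 without replicates 1 and 2 of the flox/flox label. In pericyte-like nuclei it was 2 in DESeq2, 1 without nuclei holding 4 markers of another class, and 0 to 2 with a library left out. Against neurons it was 7 in DESeq2, 1 without doublets and 0 to 56 with a library left out. Against endothelial nuclei it was 0 in every alternative run. The cause was not tested.

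With the replicate number as a block, 27 genes were called in members (17 of the 20 named there), 12 in pericyte-like nuclei (Frmd4a, Slc1a2, Gabrb1, Galnt17, Grm7, Apoe, Wdr17, Cpe, Gpc5, Farp1, Slc1a3 and Csmd3) and 0 in fibroblast-like nuclei. The numbers were not taken as pairing: the correlation of replicate 1 minus replicate 2 between labels was 0.064 over 4300 genes, and the number coincides with sex.

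Of 836 alternatives for 69 named gene results, 759 kept direction and side of the threshold, 66 passed it and 11 changed sign. The 69 results include the 6 genes that the membership rule asked for, Slc6a13, Slc6a20a and Bnc2 among them. Values of these 6 genes describe the choice of members and carry no test. Sel1l moved to 0.02 with no filter and with nuclei above 200 genes, 0.12 without nuclei holding choroid plexus markers, 0.01 without those holding markers of another class, and -0.16 to 0.10 with a library left out. As a description of the choice of members, Slc6a13 was -0.32 without doublets and -0.26 to 1.00 with a library left out. Slc6a20a was -0.10 to 0.64, and Bnc2 -0.48 to 0.98, with a library left out, and Bnc2 was -0.13 after thinning. The alternatives that left out nuclei with choroid plexus markers, or nuclei of another class within a kind, were chosen after seeing the data. The smallest groups were 15 fibroblast-like nuclei in Sel1L flox/flox replicate 2 and 13 pericyte-like nuclei in Sel1L Syn-Cre replicate 2, and 596 genes passed the filter on low counts in pericyte-like nuclei.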

Other observations

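Clock genes were read together after their values were seen, so the list of 16 carries no test of its own. Of 12 tested in member nuclei, 3 were higher in both libraries labelled Syn-Cre (Arntl, Npas2 and Clock) and 7 were lower (Dbp, Tef, Hlf, Per2, Per3, Nr1d2 and Cry1), against 17.1% and 18.7% of all genes, and 2 overlapped (Per1 and Cry2). Hlf, the third PAR bZIP factor, stood at 473, 449, 308 and 300 CPM. Endothelial nuclei of the same libraries gave Dbp at 111, 53.9, 18.2 and 0 CPM and Tef at 191, 80.9, 45.4 and 61.0 CPM. Neuron nuclei gave Dbp at 20.2, 19.5, 8.06 and 14.7 CPM and Arntl at 67.3, 68.6, 88.4 and 76.5 CPM. None of the 12 passed the adjusted threshold in edgeR with label as the only term, where 8 had an unadjusted p below 0.05. With the replicate number as a block Npas2, Dbp, Tef, Nr1d2 and Arntl passed (edgeR adjusted p = 0.00215, 0.00772, 0.0268, 0.0271 and 0.0417).

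The meningeal transporter Slc47a1 followed neither label, with 16, 35, 40 and 85 UMIs in member nuclei, or 77.1, 425, 108 and 637 CPM, higher in both replicates 2. Replicate number coincides with sex in these libraries, and a difference between the sexes was not tested.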
